A study of Mus musculus with 16 samples.

Results

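The genes described here are the neurotrophins and neurotrophin receptors Bdnf, Ntf3, Ntrk2, Ntrk3, Ngfr and Sort1, matched by symbol to the gene identifiers of the expression table. All 6 were in the table, of 18424 genes in all. RNA was sequenced from the medial prefrontal cortex (mPFC) of 16 male C57BL/6N mice at postnatal day 120, in 4 groups of 4 mice. The genotypes were wild type (WT) and heterozygous (HT) for a truncating mutation of Arid1b, a gene whose protein belongs to the SWI/SNF chromatin remodellers. As pups they received fluoxetine (Flx), a selective serotonin reuptake inhibitor, or vehicle (Veh) from postnatal day 3 to 21 through the milk of dams that drank saccharin water (0.2%) with or without fluoxetine at 0.1 mg per ml. Mice of all 4 groups (WT-Veh, HT-Veh, WT-Flx and HT-Flx) therefore had saccharin-drinking dams, and after weaning all drank normal water. The labels do not say which mice shared a dam, and the p-values treat the mice of a group as independent, littermates or not. Fluoxetine was given to the dams, so p-values for it and for the interaction may count pups of the same dam as separate replicates.

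Neurotrophins are secreted growth factors made as precursors and cleaved to mature ligands. Mature BDNF, the product of Bdnf, binds the receptor tyrosine kinase TrkB (Ntrk2), and neurotrophin-3 (Ntf3) binds mainly TrkC (Ntrk3). The receptor p75NTR (Ngfr) binds all neurotrophins and, together with sortilin (Sort1), their precursors, and sortilin also sorts the BDNF precursor inside the cell. In the cortex, Bdnf is transcribed in excitatory neurons from several promoters, some of which respond to neuronal activity, while TrkB is found on neurons and, in a form without a kinase domain, on astrocytes.

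The values are normalized read counts, and the depth behind them is unknown. Sample totals ran from 92.8% to 104% of their mean, which follows from the normalization, and the lowest correlation between a pair of samples was 0.958 on the log2 scale. Arid1b was at 75.8% of its WT mean in HT mice under both treatments. Its ranges overlapped under vehicle (1619 to 2005 in HT-Veh and 1787 to 2831 in WT-Veh, log2 difference -0.38, exact permutation p = 0.0857) and not under fluoxetine (1545 to 1671 in HT-Flx and 1902 to 2433 in WT-Flx, log2 difference -0.39, exact permutation p = 0.0286, the smallest that 4 mice against 4 can give). Cortical excitatory markers were high in every sample (Slc17a7, the vesicular glutamate transporter of cortical neurons, at 32162 or more). In 5 mice, markers of the olfactory bulb, which lies in front of the mPFC, were also high. A bulb score, the mean of log2(value + 1) over 10 such markers, ran from 8.20 to 10.3 in 3 WT-Flx mice (replicates 1, 2 and 4), HT-Veh replicate 4 and WT-Veh replicate 1. In the other 11 mice it ran from 5.60 to 6.57. No HT-Flx mouse was among the 5.

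Bdnf (ENSMUSG00000048482, chr2:109674700-109727007, plus strand, GRCm38) has 11 annotated transcripts, and the table gives 1 value for all of them. Its exons share 896 bases with Gm45346, an antisense gene listed at 1.82 to 16.8, and whether the counting used strand is not given in the sources used here. In the RefSeq promoter windows (GRCm38.p6), 7 start sites of Bdnf have a window, of which the 250 bases before each start were searched for the half-site of the cyclic AMP response element, the letters CGTCA or their reverse complement TGACG. This element is the binding motif of CREB, a factor that acts downstream of calcium entry in active neurons. The letters were found before 1 of the 7 Bdnf starts, which is not above the share of 17.8% over all 32851 windows in the reference. The full palindrome TGACGTCA was found before none of the Bdnf starts and before 1.55% of all windows. The Bdnf window with the half-site is shown with the windows of Fosb and Homer1, a pair of activity-regulated genes that were high in the same mouse as Bdnf, as described further on. Inhba and Grasp, also high in that mouse, have 1 window each with no half-site, as has the second window of Homer1. Nptx2, high in that mouse too, has no window. Npas4 and Dusp1, activity-regulated genes at their lowest in that mouse, have 1 window each, with a half-site. Capitals mark the half-sites, which begin 35 bases before the start in Bdnf, 60 in Fosb, and 56, 40 and 14 in Homer1.
Bdnf, chr2:109692186-109692435, plus strand: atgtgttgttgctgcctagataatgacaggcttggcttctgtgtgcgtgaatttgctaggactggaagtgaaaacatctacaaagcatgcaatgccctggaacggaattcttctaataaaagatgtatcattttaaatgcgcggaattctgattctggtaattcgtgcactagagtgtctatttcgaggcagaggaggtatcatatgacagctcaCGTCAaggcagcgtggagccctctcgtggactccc
Fosb, chr7:19310046-19310295, minus strand: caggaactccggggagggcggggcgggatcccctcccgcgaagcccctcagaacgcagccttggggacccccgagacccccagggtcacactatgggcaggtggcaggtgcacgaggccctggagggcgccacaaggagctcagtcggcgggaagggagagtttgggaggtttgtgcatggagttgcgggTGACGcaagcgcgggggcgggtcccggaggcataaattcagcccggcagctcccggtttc
Homer1, chr13:93303507-93303756, plus strand: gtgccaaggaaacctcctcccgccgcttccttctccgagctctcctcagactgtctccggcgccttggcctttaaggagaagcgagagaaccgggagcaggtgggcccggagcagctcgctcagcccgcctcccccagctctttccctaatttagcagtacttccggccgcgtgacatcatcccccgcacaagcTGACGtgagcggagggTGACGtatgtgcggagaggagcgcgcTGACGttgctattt
Of the 16 activity-regulated genes listed for this report, 12 had a window and 11 of these had a half-site in at least 1 of them. Counted by window, as the share over all windows is, 13 of their 17 windows had one. None of the 4 windows of Ntf3, Ntrk2 and Ngfr had one. These are matches of letters, and no binding was measured.

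Per kilobase of exon, sortilin was the most abundant of the 6 genes and Ntf3 and Ngfr were the least abundant. Over the 16 mice, the normalized count per kilobase of the union of exons was 2086 ± 181 for Sort1, 976 ± 131 for Ntrk2, 229.6 ± 31.1 for Ntrk3, 102 ± 41.1 for Bdnf, 12.2 ± 4.30 for Ntf3 and 10.9 ± 2.94 for Ngfr (mean ± SD). The ranges of Sort1, Ntrk2 and Ntrk3 did not overlap each other, whereas those of Ntrk3 and Bdnf did, through 1 mouse with a high Bdnf value. Ntf3 and Ngfr, neighbours at the bottom of this order, ranged from 6.91 to 21.8 and from 6.33 to 17.2 and did not differ beyond their spread. Because Ntrk2 has long alternative exons, its level depended on the length used. Per kilobase of the longest transcript it was 2153 ± 289, next to 2309 ± 200.1 for Sort1, with overlapping ranges.

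**Figure D1:**
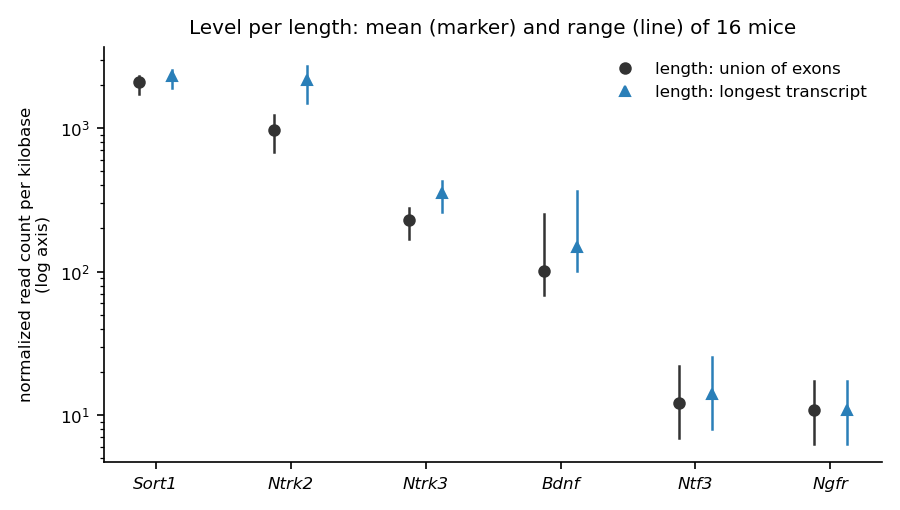
Normalized read count per kilobase (log axis) of the 6 genes over all 16 mice, with the mean as a marker and the range as a line, for the union of exons (circles) and the longest transcript (triangles). Sort1 and Ntrk2 lie highest, at means of 2086 and 976 per kilobase of exon, and Ntf3 and Ngfr lowest, at 12.2 and 10.9.

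To ask whether the ligands differed between groups, Bdnf and Ntf3 were compared first. In replicates 1 to 4, the normalized count of Bdnf was 545, 585, 669 and 587 in WT-Veh and 601, 559.8, 607 and 632 in WT-Flx. It was 429, 543, 572 and 516 in HT-Veh and 468, 1561, 582 and 642 in HT-Flx. Bdnf thus stayed between 429 and 669 in 15 mice, and HT-Flx replicate 2 stood alone at 1561, 2.33 times the next highest mouse. The group means were 597 ± 52.1, 599.7 ± 29.8, 515.02 ± 62.02 and 813 ± 504 (SD, n = 4 each).

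Without drug, Bdnf was lower in HT-Veh than in WT-Veh by 0.22 on the log2 scale, and the groups overlapped. This did not pass the limma test over all genes (SE 0.11, adjusted p = 0.922), and the exact permutation p was 0.0571. Comparing HT-Flx with HT-Veh, Bdnf had a log2 difference of 0.50 (SE 0.29, limma adjusted p = 1.00), which was 0.13 without HT-Flx replicate 2. In HT-Flx versus WT-Flx it was 0.27 (SE 0.29, limma adjusted p = 0.755), and without that mouse it turned to -0.10. In WT-Flx versus WT-Veh the difference was 0.01 (95% interval -0.21 to 0.23). The change with fluoxetine in HT minus that in WT was 0.49 (SE 0.35, limma adjusted p = 0.998), and 0.12 without HT-Flx replicate 2.

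Ntf3 (ENSMUSG00000049107, chr6:126101412-126166910, minus strand, 3 transcripts) was close to the lower limit of the values tested. It was at 24.6, 13.9, 15.4 and 12.4 in WT-Veh, 26.8, 25.8, 18.8 and 15.7 in WT-Flx, 31.2, 15.4, 26.6 and 23.4 in HT-Veh, and 17.02, 11.8, 37.4 and 17.1 in HT-Flx. All 4 groups overlapped, and HT-Flx held both the lowest and the highest mouse. The largest difference was 0.52 on the log2 scale in HT-Veh versus WT-Veh (SE 0.32, limma adjusted p = 0.922), with a 95% interval from -0.19 to 1.24.

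**Figure D2:**
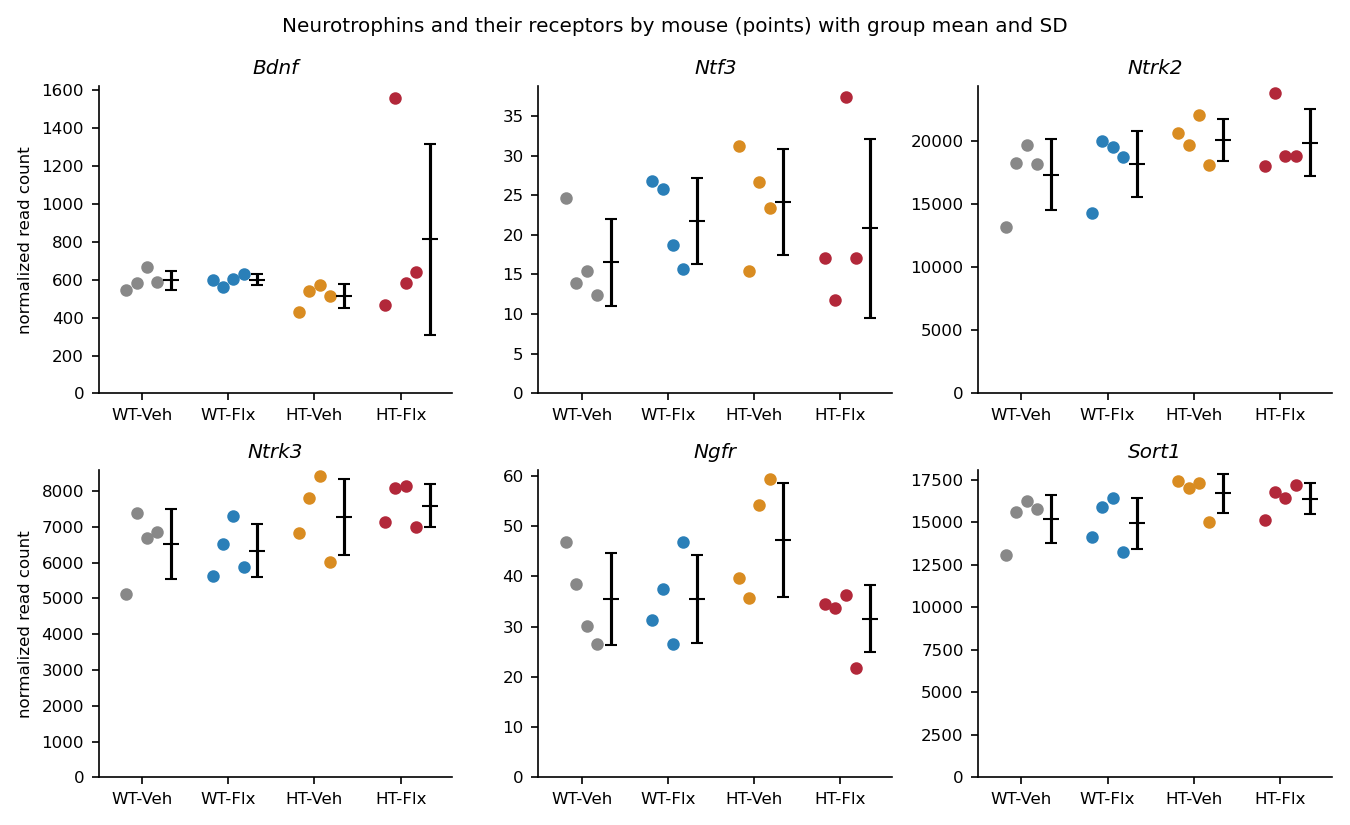
Normalized read count of each of the 6 genes (vertical axes from 0) in the 4 groups, with 1 point per mouse in the order of replicates 1 to 4 and the group mean with its SD in black. HT-Flx replicate 2 lies at 1561 for Bdnf, while the other 15 mice lie between 429 and 669, and the 2 groups of each comparison overlap for every gene.

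Of the catalytic receptors, Ntrk2 (ENSMUSG00000055254, chr13:58806569-59133970, plus strand, 10 transcripts) was read at 13194, 18232, 19609 and 18152 in WT-Veh and at 14267, 19996, 19471 and 18729 in WT-Flx. In HT-Veh it was at 20579, 19624, 22028 and 18057, and in HT-Flx at 17951, 23781, 18809 and 18773. The lowest values were those of replicate 1 in both WT groups, which had bulb scores of 10.3 and 8.20. Ntrk3 (ENSMUSG00000059146, chr7:78175959-78738012, minus strand, 20 transcripts) was at 5122, 7392, 6681 and 6863 in WT-Veh, 5636, 6520.1, 7301 and 5884 in WT-Flx, 6832, 7803, 8419 and 6026 in HT-Veh, and 7137, 8075, 8127 and 6992 in HT-Flx. Its 3 highest values were in HT mice, and the lowest value of each of WT-Veh, WT-Flx and HT-Veh belonged to a mouse with a high bulb score.

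Sort1 (ENSMUSG00000068747, chr3:108284082-108361511, plus strand, 3 transcripts) varied least relative to its level. It was at 13086, 15580.4, 16224 and 15741 in WT-Veh, 14123, 15889.7, 16426 and 13247 in WT-Flx, 17435, 17027, 17278 and 14993 in HT-Veh, and 15145, 16793, 16406 and 17194 in HT-Flx. Here too the lowest mouse of the first 3 groups had a high bulb score. Sort1 exons share 338 bases with the antisense gene Gm12523, which was not analysed here. Ngfr (ENSMUSG00000000120, chr11:95568818-95587735, minus strand, 1 transcript), which in the adult forebrain is best known from cholinergic neurons, was at 46.9, 38.4, 30.1 and 26.5 in WT-Veh, 31.4, 37.5, 26.5 and 46.8 in WT-Flx, 39.7, 35.8, 54.2 and 59.3 in HT-Veh, and 34.5, 33.7, 36.3 and 21.8 in HT-Flx. HT-Veh held the 2 highest mice and HT-Flx the lowest.

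None of the 6 genes passed the adjusted threshold of 0.05 in limma in any comparison of groups. Nor did the ranges of any member lie apart in the 4 comparisons of 2 groups, as they did for 3.84% of genes between genotypes under vehicle, 5.83% between genotypes under fluoxetine, 2.89% between treatments in WT and 1.99% between treatments in HT. These comparisons share groups and are not independent. In HT-Veh versus WT-Veh, 0.0178% of 16832 genes passed, and no member had an unadjusted p under 0.05, which 4.88% of all genes did. The log2 differences were positive for 5 of 6 members, with a median of 0.19 against 0.0062 over all genes. Signs of the members are not independent, as Ntrk2, Ntrk3 and Sort1 varied together (Pearson r from 0.76 to 0.82). The differences were 0.23 (SE 0.12) for Ntrk2, 0.16 (SE 0.13) for Ntrk3, 0.41 (SE 0.26) for Ngfr and 0.14 (SE 0.086) for Sort1. Without WT-Veh replicate 1, the mouse with the highest bulb score, they were 0.10 for Ntrk2, 0.05 for Ntrk3 and 0.07 for Sort1. The differences of Ngfr and Ntf3 were larger without that mouse, at 0.55 for Ngfr and 0.72 for Ntf3. In HT-Flx versus HT-Veh, 0% of 16814 genes passed, and 3.07%, no member among them, were under an unadjusted p of 0.05. Ngfr came nearest there, at -0.56 (SE 0.26, limma p = 0.0524, adjusted p = 1.00; exact permutation p = 0.0571), with overlapping groups. In WT-Flx versus WT-Veh, 0% of 16833 genes passed, 4.2% had an unadjusted p under 0.05, and no member did. In that comparison Ntrk2, Ntrk3 and Sort1 differed by 0.07, -0.03 and -0.02.

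Between genotypes under fluoxetine, 0.0417% of 16788 genes passed, and for 10.4% the unadjusted p was under 0.05. Of the members, Ntrk3 alone was in the latter count, higher in HT-Flx by 0.26 (SE 0.10, limma p = 0.0234, adjusted p = 0.414; exact permutation p = 0.0857). WT-Flx replicate 3, the WT-Flx mouse with a low bulb score, lay within the HT-Flx range at 7301. Bulb scores did not overlap between these groups (5.60 to 6.40 in HT-Flx and 6.57 to 10.1 in WT-Flx), so the score and the genotype cannot be told apart for most of these 8 mice. With the bulb score as a covariate the Ntrk3 difference was 0.08 (SE 0.16), and without the mice whose score was above 7 it was 0.05 (SE 0.13), which leaves 1 WT-Flx mouse.

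Genotype was then tested over both treatments, with all 16 mice. The HT minus WT difference was positive for all 6 members, with a median of 0.16 against 0.0044 over all genes. These signs are not independent either, and the bulb score was uneven between genotypes. The mice with a score above 7 were 1 of WT-Veh, 3 of WT-Flx and 1 of HT-Veh. For Bdnf, at 0.03, the sign rested on 1 mouse, and the difference was -0.16 without HT-Flx replicate 2 and -0.08 without the mice with a bulb score above 7. No member passed the adjusted threshold, as 0.0398% of 17567 genes did, and 2 of 6, Ntrk3 and Sort1, had an unadjusted p under 0.05, as 11.9% of all genes did. Ntrk3 was 0.21 higher in HT (SE 0.084, limma p = 0.0218, adjusted p = 0.391; exact permutation of genotype within treatment p = 0.0408), with 7426 ± 813 in HT and 6425 ± 809 in WT (SD, n = 8 each). Sort1 was 0.14 higher (SE 0.061, limma p = 0.0339, adjusted p = 0.402; exact permutation p = 0.0314), with 16534 ± 958 and 15039.7 ± 1347. These were the 2 values under 0.05 among 36 exact permutation tests of the 6 genes. Without the mice with a bulb score above 7, the differences were smaller, 0.11 (SE 0.068) for Ntrk3 and 0.08 (SE 0.049) for Sort1, with limma adjusted p of 0.887 and 0.883. Ntrk2 differed by 0.18 (SE 0.091, limma adjusted p = 0.438), and by 0.10 without those mice. Neither the fluoxetine difference over both genotypes nor the interaction was past the threshold for any gene (0% of 17567 genes each, with 3.11% and 4.29% at an unadjusted p under 0.05 and no member among them). The interaction of Ngfr was -0.57 (SE 0.37) and that of Ntf3 was -0.68 (SE 0.50).

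**Figure D3:**
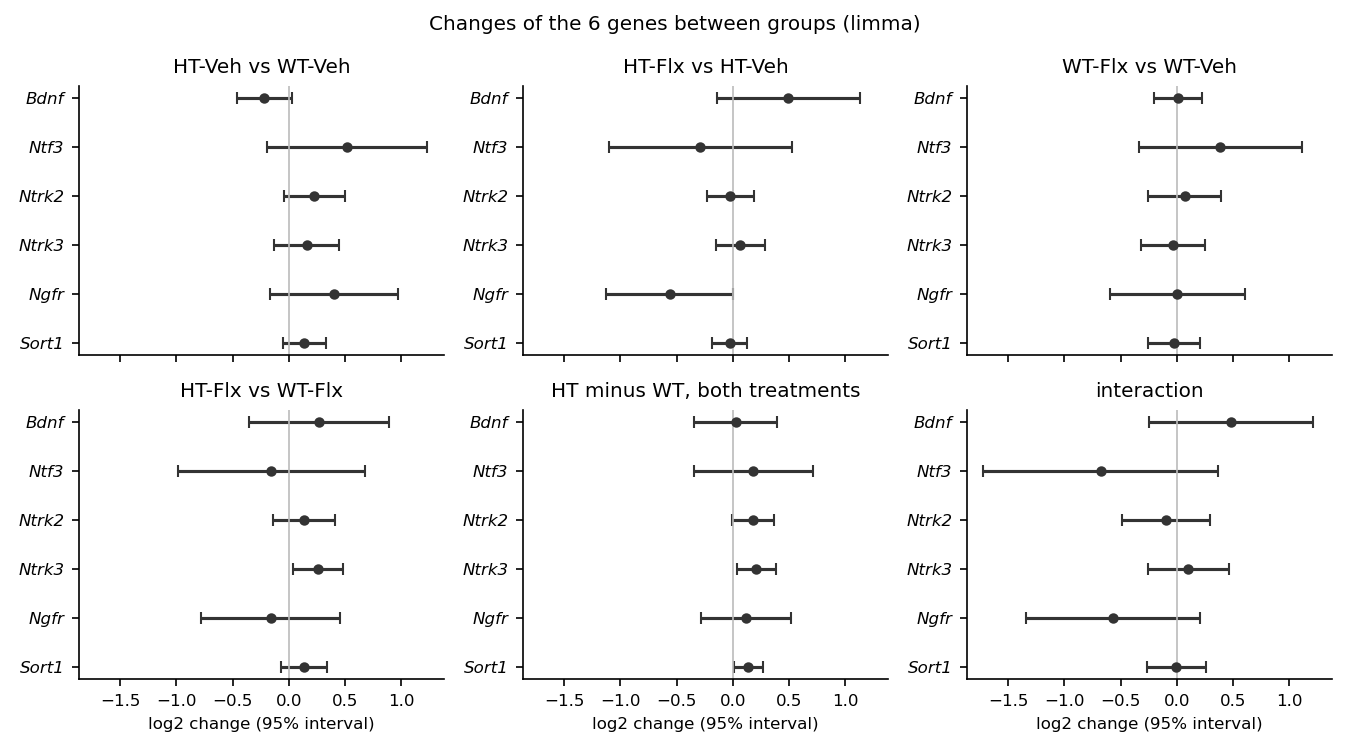
Log2 differences of the 6 genes (horizontal axis, limma on log2 of value + 1) with 95% intervals, 1 panel per comparison. Only Ntrk3 in HT-Flx versus WT-Flx, and Ntrk3 and Sort1 in HT minus WT over both treatments, have unadjusted intervals that leave out 0, and their adjusted p-values are 0.414, 0.391 and 0.402.

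With all 16 mice in the fit, the levels of Ntrk3 and Sort1 went down as the olfactory bulb score went up, within groups. In a limma fit of each gene on the score with the 4 groups as terms, 11.3% of 17567 genes passed the adjusted threshold, 6.59% with a lower level at a higher score. Ntrk3 and Sort1 were 2 of the 6 members in that class, and no member passed in the other direction. The slope per unit of score was -0.10 on the log2 scale for Ntrk3 (SE 0.022, limma adjusted p = 0.00677) and -0.07 for Sort1 (SE 0.017, limma adjusted p = 0.0198). Ntrk2, at -0.07 (SE 0.032, limma adjusted p = 0.158), and Ngfr, at 0.16 (SE 0.063, limma adjusted p = 0.107), had unadjusted p-values of 0.0387 and 0.0205, which 27% of all genes had under 0.05. Bdnf had a slope of -0.0029 (SE 0.068) and Ntf3 of 0.06 (SE 0.098). Neither receptor was past the threshold among the 11 mice with a score of 7 or less, where the slopes were -0.15 (SE 0.15) for Ntrk3 and 0.03 (SE 0.10) for Sort1, nor when a score above 6 was set against the others (limma adjusted p = 0.893 and 0.919) or the replicate number was a block (0.0659 and 0.141).

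Ntrk3 was at 5122 to 6520.1 in the 5 mice with a score above 7 and at 6681 to 8419 in the other 11, with no overlap, as for 2.68% of 17567 genes in this split, which was chosen after seeing the data. Sort1 ranges, at 13086 to 15889.7 and 15145 to 17435, overlapped, as did those of Ntrk2 (13194 to 19996 and 17951 to 23781) and of Ngfr (31.4 to 59.3 and 21.8 to 54.2). In the same 5 mice the bulb projection neuron markers Eomes, Tbx21 and Cdhr1 were at 149 to 899, 46.9 to 234 and 692 to 3485, against 0 to 25.3, 4.66 to 12.6 and 63.3 to 193 in the other 11, and all 10 markers, which define the score, had positive slopes. Camk2a, a kinase of excitatory forebrain neurons picked after its values were seen, was at 74624 to 111436 and 115949 to 155834. Slc17a7 overlapped, at 32162 to 41966 and 37178 to 43463. So did the mean log2 level of 5 cortical excitatory markers, at 12.68 to 13.21 and 13.19 to 13.43. Of these 5, 3 had a lower level at a higher score past the adjusted threshold, as had 6.59% of all genes. A mixture with bulb tissue, fewer cells of a type and less RNA per cell cannot be told apart in such bulk samples, and their part in the receptor levels was not tested. The calls rested on WT-Veh replicate 1, the mouse with the highest score. Without it 155 genes in all passed in place of 1980, the slopes were -0.10 and -0.07, and the limma adjusted p-values were 0.212 for Ntrk3 and 0.305 for Sort1. Sort1 also missed the threshold without WT-Flx replicate 3 (0.0643) and without HT-Veh replicate 4 (0.0554), and without WT-Flx replicate 1 Ntrk2 passed too (0.0414).

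**Figure D4:**
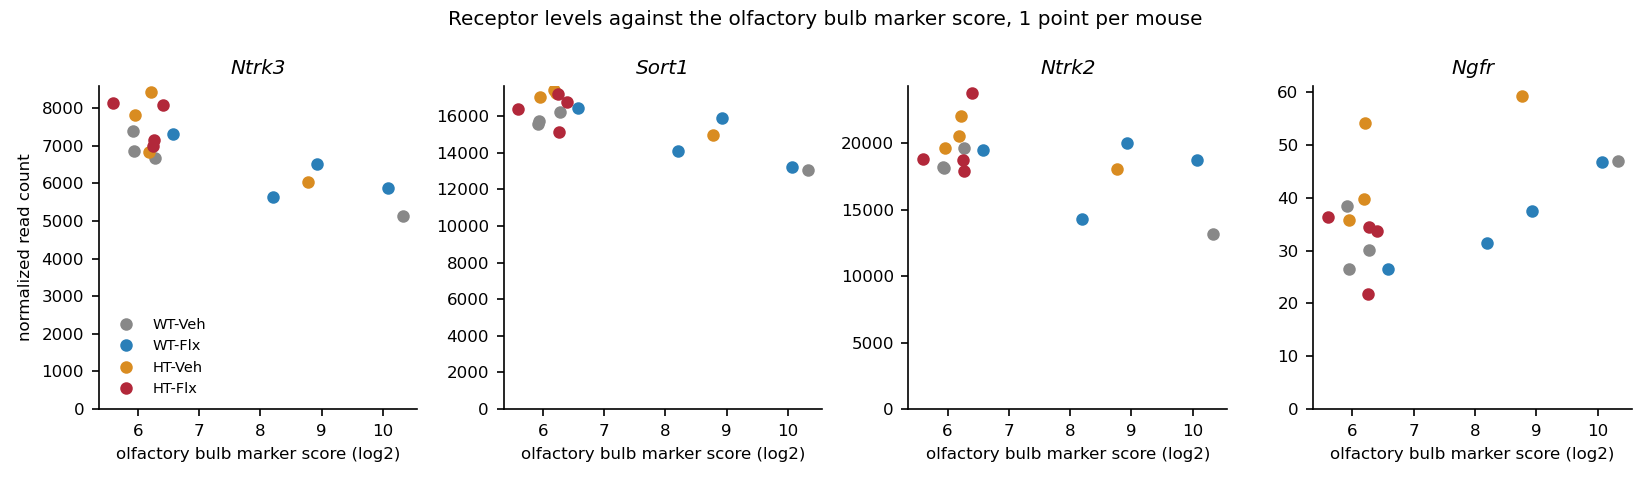
Normalized read count (vertical axes from 0) of Ntrk3, Sort1, Ntrk2 and Ngfr against the olfactory bulb marker score (mean log2 of value + 1 over 10 markers), with 1 point per mouse coloured by group. The 5 mice with a score above 7 lie at 5122 to 6520.1 for Ntrk3 and the other 11 at 6681 to 8419.

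The single high Bdnf value belonged to a mouse with an uneven pattern of activity-regulated genes. In HT-Flx replicate 2, Fosb, a transcription factor that accumulates with repeated activity, was at 3729 against 239.6 to 472 in the other 15 mice. Nptx2, a secreted pentraxin that gathers AMPA receptors at synapses, was at 6245 against 714 to 1004. Inhba, an activin subunit, was at 1032 against 266 to 519, and Homer1, a synaptic scaffold with an activity-induced short form, at 9479 against 2694 to 6202. Relative to the median of the other mice these were 12.0, 7.29, 2.99 and 2.11 times higher, and Bdnf was 2.68 times higher. In the same mouse, rapid early genes went both ways. Egr4 and Nr4a3 were the highest of all 16 mice, at 1.68 and 1.299 times the median, and Fos and Junb were second highest, at 1.44 and 1.37 times. Npas4 and Dusp1 were the lowest of all 16 mice, at 247 and 436, and Arc, Egr1, Egr2 and Nr4a1 were at 0.62 to 0.69 times the median. Of the 16 activity genes, 6 had their highest value in this mouse and 10 were above the median of the others. Over all 17567 genes, 157 had 1 mouse at 2-fold or more above every other mouse, and for 67 of these, Bdnf among them, the mouse was HT-Flx replicate 2. One animal gives no comparison of conditions.

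HT-Flx replicate 3 shared only some of these values. Its levels of Fos, Junb, Arc, Npas4, Nr4a1 and Dusp1 were the highest of all mice, and 12 of the 16 activity genes were above the median, but Bdnf, at 582, was at 1.00 times it and Nptx2 at 0.92 times. Fosb (1.52 times) and Egr4 (1.51 times) were second highest in this mouse, after replicate 2. The mean log2 level of the 16 activity genes was accordingly similar in both mice, at 10.6 in replicate 2 and 10.5 in replicate 3. Bdnf had a slope of 0.57 on this activity score within groups (SE 0.26, limma adjusted p = 0.96), where 0.0228% of all genes were past the adjusted threshold and 5.13% were under an unadjusted p of 0.05. The slope was 0.21 without HT-Flx replicate 2, 0.34 without HT-Flx replicate 1 and 0.74 without HT-Flx replicate 3. Bdnf was the 1 member with an unadjusted p under 0.05. The 4 genes past the adjusted threshold, Fos, Junb, Egr2 and Nr4a3, are part of the score.

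**Figure D5:**
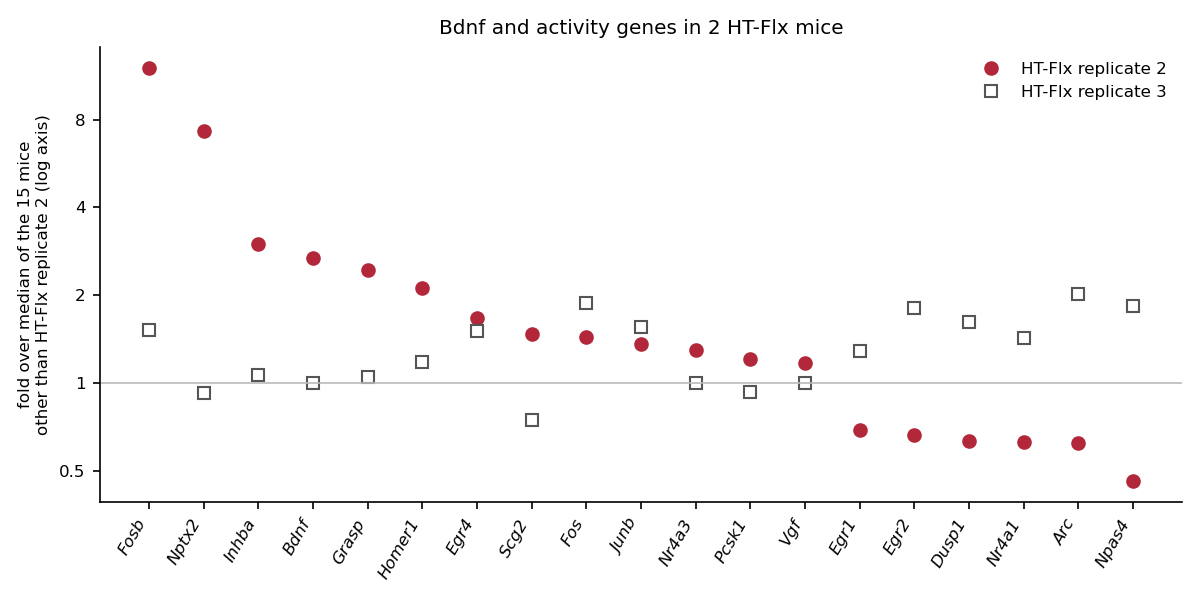
Level of Bdnf, the 16 activity genes, Grasp and Pcsk1 in HT-Flx replicates 2 (filled circles) and 3 (open squares), as a fold (log axis) over the median of the 15 mice other than replicate 2. Fosb, Nptx2, Inhba, Bdnf, Grasp and Homer1 lie at 2.11 to 12.0 in replicate 2, while Npas4 and Dusp1 lie at 0.46 and 0.63.

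The genes with patterns most like those of the members over the 16 samples were taken as the 3 with the highest Pearson correlation each, as a description. For Bdnf these were Nptx2 (r = 0.93), Grasp, a scaffold of metabotropic glutamate receptors (r = 0.93), and Fosb (r = 0.91), and without HT-Flx replicate 2 the values were 0.49, 0.44 and 0.30 over 15 samples. Those for the receptors did not rest on that mouse. For Sort1 they were Grin2a, an NMDA receptor subunit, Arhgap32 and Megf9 (0.96, 0.95 and 0.95), for Ntrk2 Tenm4, Mef2d and Soga1 (0.94, 0.93 and 0.92), and for Ntrk3 Sorbs2, Gm46123 and Frmpd3 (0.93 each), with 0.90 to 0.97 for all 9 without it. For Ngfr they were Gm48529, Sbspon and Dnase2a (0.84, 0.84 and 0.81) and for Ntf3 Asap3, H2-Q6 and Lrmp (0.77, 0.76 and 0.74). Among the members, Ntrk3 and Sort1 (0.82), Ntrk2 and Ntrk3 (0.78) and Ntrk2 and Sort1 (0.76) were most alike. All these values share libraries and the differences in bulb score between them.

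The other genes of the pathway were taken from 5 lists with 60 genes in the table, and none passed the adjusted threshold in any comparison of groups in limma. Ntf5, neurotrophin-4, was at 1.78 to 15.001 and was below the filter on low values wherever that filter was applied. Of 15 sorting and cleavage genes, 1 had an unadjusted p under 0.05 in HT-Veh versus WT-Veh. This was Pcsk5, a proprotein convertase, at 196 to 236 in WT-Veh and 248 to 345 in HT-Veh (log2 difference 0.47, SE 0.13, limma adjusted p = 0.872). The groups did not overlap, as for 3.84% of genes in that comparison. Its value in WT-Flx, 253 to 314, was also above the WT-Veh range, where 2.89% of genes did not overlap between these 2 groups.

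Of 18 adaptors and effectors of Trk receptors, 2 had an unadjusted p under 0.05 in HT-Flx versus WT-Flx, both higher in HT-Flx, against 10.4% of all genes. Rapgef1, an exchange factor that acts on Rap1 downstream of Trk receptors, was at 3562 to 3905 in WT-Flx and 4233 to 4729 in HT-Flx (log2 difference 0.24, SE 0.079, limma adjusted p = 0.375), without overlap, as for 5.83% of genes. Bulb scores did not overlap between these groups either, so for Rapgef1, as for Ntrk3, score and genotype cannot be told apart for most of these mice. Of 9 interaction partners of p75NTR, none had an unadjusted p under 0.05 in a comparison of 2 groups, and Tnfrsf19 came nearest (0.18, SE 0.090, limma adjusted p = 0.497, HT-Flx versus WT-Flx). Of the 16 activity genes, Npas4 had the smallest p in a comparison of 2 groups, at 354 to 566 in WT-Veh and 632 to 685 in WT-Flx (log2 difference 0.46, SE 0.14, limma adjusted p = 1.00), without overlap, as for 2.89% of genes.

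On the bulb score, members of these lists went both ways. Among sorting and cleavage genes, the sortilin relatives Sorl1 (-0.10) and Sorcs1 (-0.12) and the convertase Pcsk2 (-0.08) fell with the score and Cpe, carboxypeptidase E, rose (0.06). Among Trk adaptors, Shc3 (-0.31), a neuronal adaptor, and Rapgef1 (-0.07) fell and Grb2 rose (0.11). Of the p75NTR partners, the coreceptor subunit Lingo1 fell (-0.10) and Nradd (0.37), Maged1 (0.08) and Bex3 (0.09) rose, and of the activity genes Scg2, which encodes a secretogranin, rose (0.29). The limma adjusted p-values of these 12 slopes ran from 3.35e-05 to 0.0448, against 11.3% of all genes past the threshold. Of the cholinergic markers, listed because Ngfr marks such neurons, Chat was at 6.84 to 45.2 and Slc18a3 at 0.893 to 20.6. The 4 listed markers in the table together reached 219 in an HT-Veh mouse, and their lowest sum was 40.0, in WT-Veh. Their mean log2 level was highest in HT-Veh replicate 4 (5.33), the mouse with the highest Ngfr. It was lowest in HT-Veh replicate 3 (2.53), which had the next highest Ngfr. Any part of these neurons in the Ngfr level was not tested.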

How the data were processed

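RNA from the mPFC of 16 mice was made into stranded poly-A libraries and sequenced. Per the submitters' processing notes and the study's methods, reads were quantified with Salmon 1.1.0 on GRCm38, with GC bias correction, summarised to genes with tximport and normalized in DESeq2 1.30.1. What the authors deposited is a signal, in normalized reads per gene. Values were not whole numbers, so depth is unknown and no count model, interval or floor that needs depth was used. The normalization and the estimated transcript shares can move low genes such as Ntf3 and Ngfr most. Replicates were not pooled, and groups came from the sample titles.

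From these values, limma 3.58.1 with R 4.3.3 (a linear model per gene, with a mean-variance trend) was run on log2(value + 1) over genes at 10 or more in at least 4 samples of the fit. P-values were two-sided and adjusted over all genes (Benjamini-Hochberg, threshold 0.05). Log2 differences on this scale understate changes of low genes. Comparisons of 2 groups used only those mice, and genotype, fluoxetine, interaction and slope fits used all 16. The fits were tested on simulated data with independent noise per gene and planted changes larger than the members' differences between groups. That test does not give the power for differences of the size reported here. Exact permutation tests were two-sided on mean log2(value + 1). Positions and lengths came from GENCODE (GRCm38) and promoter windows from RefSeq, where 4 of the 6 members had one. Ntrk3 and Sort1 had none.

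The members and gene lists were chosen with earlier results of these data known. Genes named are the 6 members, Arid1b, the 3 genes most correlated with each member, list genes past the adjusted threshold in a fit or else the 1 with the smallest p over the comparisons of 2 groups, and the first 3 markers of a list. Camk2a, and the activity genes and Pcsk1 shown for HT-Flx replicates 2 and 3, were chosen after their values were seen. Alternatives were pseudocounts of 0.1 and 8, no filter, a mean of at least 100, a common upper quartile, quantile normalization, sample quality weights, all 4 groups in the fit, the bulb score as a covariate, a bulb score above 6 in place of the slope, an activity score without its 3 most abundant genes, the replicate number as a block and leaving out each mouse. Leaving out mice with a bulb score above 7, and comparing them with the others, were added after seeing the data. Some genes of the pathway are not reported here.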

Additional observations from a re-analysis of the deposited data

Results flagged for a closer look

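For each of the 6 genes and Arid1b, the highest and lowest mouse of each group were compared with the nearest other mouse, as a share of the group's range (Dixon's test at 95%). Of 28 such groups 4 were past the critical value, where chance alone flags about 1 in 20. Bdnf in HT-Flx replicate 2, at 1561, stood above the other 3 mice by 0.84 of the range. On the log2 scale, which the fits used, that share was 0.74, under the critical value, so Bdnf is past it on the linear scale only. Ntrk2 in the same mouse, at 23781, stood apart by 0.85 of the range, and the highest of the other 15 mice was at 22028. Sort1 was low in HT-Veh replicate 4, at 14993 (0.83 of the range), the HT-Veh mouse with a bulb score of 8.77. Arid1b was at 1545 in HT-Flx replicate 4 (0.92 of the range), with the other 3 HT-Flx mice between 1661 and 1671. No cause of these was tested.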

How the results depend on the processing

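In the 7 comparisons of groups, none of the 910 alternative fits of the 6 genes was past the adjusted threshold in limma (smallest adjusted p = 0.181), and 70 had the opposite sign to the value reported. The slopes on both scores had 320 further fits. Depth is unknown, which limits Ntf3 and Ngfr most. The planned fit without mice with a bulb score above 6 was not run, since it left too few mice, and 7 was used instead after seeing the data. The cause of the changes below was not tested.

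The labels do not say whether same-numbered mice of different groups shared anything but the number. The correlation of their deviations ran from -0.23 to 0.31 over 24 pairs, and 9 were over 0.1. With the replicate number as a block, 0 members instead of 2 passed on the bulb score, and over all genes 882 instead of 1980 passed on that score and 0 instead of 3 in HT-Veh versus WT-Veh. Under the block the bulb slope of Bdnf was 0.053, and the activity slopes were 0.82 for Ntf3, -0.25 for Ntrk2, -0.24 for Ntrk3 and -0.22 for Sort1.

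Of the 2 members past the threshold on the bulb score, 1 was past it with quantile normalization and 0 without the mice with a score above 7. The count was also 0 with a score above 6 against the others, a split that does not part the 5 high-scoring mice from the rest. Leaving out 1 mouse gave 0 to 3 (0 without WT-Veh replicate 1, 3 without WT-Flx replicate 1, 1 without WT-Flx replicate 3 or HT-Veh replicate 4). Arid1b in HT-Flx versus WT-Flx differed by -0.39 in the limma fit, with an adjusted p of 0.289. Per kilobase of the longest transcript, levels were 147.9 for Bdnf, 2153 for Ntrk2, 352 for Ntrk3 and 2309 for Sort1.

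With the bulb score as a covariate, log2 differences of the opposite sign were -0.015 for Ntrk3 in HT-Flx versus HT-Veh, 0.093 for Ntrk3, -0.21 for Ngfr and 0.065 for Sort1 in WT-Flx versus WT-Veh, 0.30 for Ngfr and -0.022 for Sort1 in HT-Flx versus WT-Flx, -0.10 for the interaction of Ntrk3 and -0.019 for Bdnf by genotype. Without the mice with a bulb score above 7 they were -0.017 for Ntrk3 in HT-Flx versus HT-Veh, -0.014 for Bdnf, 0.066 for Ntrk3, -0.23 for Ngfr and 0.052 for Sort1 in WT-Flx versus WT-Veh, and 0.019 for Ntf3, 0.22 for Ngfr and -0.0053 for Sort1 in HT-Flx versus WT-Flx. Over all 4 groups, without these mice, they were -0.084 for the interaction of Ntrk3, -0.083 for Bdnf by genotype, and -0.074 for Ntf3 and -0.032 for Ntrk2 by fluoxetine. The bulb slopes without these mice were 0.76 for Bdnf, -1.03 for Ntf3, 0.25 for Ntrk2, -0.16 for Ngfr and 0.035 for Sort1.

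Sample quality weights gave -0.027 for Bdnf in WT-Flx versus WT-Veh, -0.10 for Bdnf by genotype, -0.012 for Ntrk2 and -0.021 for Ntrk3 by fluoxetine, 0.0022 for the bulb slope of Bdnf and -0.0067 for the activity slope of Sort1. Quantile normalization gave -0.0080 for Ngfr in WT-Flx versus WT-Veh. A common upper quartile gave 0.0015 for the bulb slope of Bdnf and -0.0031 for the activity slope of Sort1, which was -0.0080 with the score without its 3 most abundant genes. The bulb slope of Bdnf was 0.11 as a score above 6 against the others.

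Leaving out 1 mouse at a time changed the sign of these values. In HT-Flx versus HT-Veh, the range was -0.11 to 0.023 for Ntrk2, -0.017 to 0.14 for Ntrk3 and -0.076 to 0.012 for Sort1. In WT-Flx versus WT-Veh it was -0.032 to 0.066 for Bdnf, -0.055 to 0.18 for Ntrk2, -0.15 to 0.031 for Ntrk3, -0.13 to 0.15 for Ngfr and -0.092 to 0.032 for Sort1. In HT-Flx versus WT-Flx it was -0.10 to 0.48 for Bdnf, -0.47 to 0.059 for Ntf3 and -0.29 to 0.0014 for Ngfr. The interaction was -0.20 to 0.032 for Ntrk2 and -0.057 to 0.067 for Sort1, and the genotype difference of Bdnf was -0.16 to 0.10. By fluoxetine it was -0.067 to 0.18 for Ntf3, -0.038 to 0.071 for Ntrk2, -0.030 to 0.051 for Ntrk3 and -0.056 to 0.0014 for Sort1. The bulb slope was -0.019 to 0.038 for Bdnf and -0.068 to 0.12 for Ntf3, and the activity slope was -0.37 to 0.22 for Ntf3 and -0.057 to 0.096 for Sort1.

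Counts of genes past the adjusted threshold over the whole table moved by over 1.5 times in some limma fits. HT-Veh versus WT-Veh gave 3, and 18 with quality weights, 0 with all 4 groups in the fit, 20 with the covariate and 11 without the mice with a bulb score above 7. WT-Flx versus WT-Veh gave 0, and 12, 1 and 9 with quality weights, the covariate and without those mice. HT-Flx versus WT-Flx gave 7, and 14, 0 and 2 under the same 3 settings, 4 with a pseudocount of 0.1, quantile normalization or all 4 groups, 0 with a mean of at least 100, and 0 to 23 without 1 mouse. Genotype gave 7, and 23 with quality weights and 4 without those mice, and the interaction gave 0, and 2 without them. The bulb slope gave 1980, and 2972 with quality weights, 0 as a score above 6 against the others and 1 without those mice. As a score above 7 against the others it gave 1734. The activity slope gave 4, and 12 with quality weights and 2 without those mice. Without 1 mouse, these counts were 0 to 2 in HT-Veh versus WT-Veh, 0 to 4 in WT-Flx versus WT-Veh, 1 to 13 by genotype, 155 (without WT-Veh replicate 1) to 3552 (without WT-Flx replicate 1) for the bulb slope and 1 to 14 for the activity slope.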

Other observations

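Genes whose highest mouse stood at 2-fold or more above every other mouse were unevenly spread. HT-Flx replicate 2 held 67 of 157 such genes, which is 0.381% of the 17567 genes tested. Olfactory ensheathing glia, the support cells of the olfactory nerve layer, are a known source of Ngfr in the bulb. The mean log2 level of 4 of their markers ran from 7.25 to 8.63 in the 5 mice with a bulb score above 7 and from 5.97 to 6.66 in the other 11, without overlap, while Ngfr, at 31.4 to 59.3 and 21.8 to 54.2, overlapped. Any part of these cells in the Ngfr level was not tested.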
